A study of Drosophila pseudoobscura and Drosophila ananassae and Drosophila yakuba with 13 samples.

Results

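Thioredoxins are small proteins with a pair of reactive cysteines that reduce disulphide bonds in other proteins and are themselves recharged by thioredoxin reductase. Flies lack glutathione reductase, and the thioredoxin system also keeps their glutathione reduced. In D. melanogaster, TrxT is a thioredoxin of the male germline, found in the nuclei of spermatocytes, and dhd (deadhead) is a thioredoxin of the female germline that the egg uses to reduce the disulphide-bonded proteins of incoming sperm chromatin. Those 2 genes lie next to each other there and are transcribed in opposite directions. Trx-2 is the general cytoplasmic thioredoxin, expressed in many tissues.

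These thioredoxin genes were taken by their symbols from the authors' tables of testis against ovary. The table of D. pseudoobscura lists TrxT, dhd and Trx-2, 3 of its 11946 genes. The table of D. ananassae lists TrxT and Trx-2, 2 of its 11576 genes, and dhd of D. ananassae was not analysed here. Together they give 5 members of 23522 listed genes.

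RNA was sequenced from testes and ovaries of wild-type, virgin, Wolbachia-free adults aged 6 to 10 days, after the attached ducts had been cut away. For D. pseudoobscura (stock 14011-0121.94, grown at 20 °C) there were 2 testis and 3 ovary libraries, and for D. ananassae (stock 14024-0371.13, grown at 25 °C) there were 2 of each, so that species cannot be told apart from temperature. The 13 libraries of the series also include D. yakuba, which was not analysed here. Each gene has a single fold change, average expression and test in these tables and no value per library, so the depth and the spread between replicates are unknown. As whole gonads were sequenced, fewer cells of a type and less RNA per cell cannot be told apart.

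Positive folds are taken to mean higher expression in testis. The tables do not state this direction, which was taken from the order of the tissues in their titles. Of 17 ovary markers 2 were listed in each species, and all were lower in testis in the authors' deposited tables, with bcd at -9.82 and hb at -2.46 in D. pseudoobscura and hb at -6.48 and nos at -3.56 in D. ananassae. None of 12 testis markers was listed under its symbol. Genes at an adjusted p under 0.05 in the authors' edgeR likelihood-ratio test are called testis-biased or ovary-biased. The folds of the thioredoxin genes are given with an implied standard error, which is the fold divided by the square root of its likelihood-ratio statistic and is not a spread measured between libraries.

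TrxT was higher in testis in both species. In D. pseudoobscura its log2 fold change was 5.89 in the authors' deposited table, or 59.3-fold (implied standard error 0.70; adjusted p = 1.97e-16, edgeR). In D. ananassae its log2 fold change was 4.56 in the authors' deposited table, or 23.5-fold (implied standard error 0.33; adjusted p = 8.76e-42, edgeR). Both calls stand against a background in which 29.6% of all genes of D. pseudoobscura and 31.7% of D. ananassae were testis-biased, and in which 73.7% and 85.4% of genes in those species were called in 1 direction or the other.

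dhd, listed in D. pseudoobscura, was lower in testis. Its log2 fold change was -17.28 (implied standard error 1.21; adjusted p = 2.34e-44, edgeR) in the authors' deposited table. Only 76 of the 11946 genes had a larger likelihood-ratio statistic, so that dhd ranked 77 in the table and 1 among its 260 rows that carry a symbol in place of an identifier.

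Trx-2 was lower in testis in both species. In D. pseudoobscura its log2 fold change was -11.04 (implied standard error 1.00; adjusted p = 1.65e-27, edgeR) in the authors' deposited table. In D. ananassae its log2 fold change was -4.59 in the authors' deposited table, or 24.2-fold (implied standard error 0.30; adjusted p = 1.15e-51, edgeR). Among all genes 44.1% were ovary-biased in D. pseudoobscura and 53.8% in D. ananassae, so ovary bias was the commonest call in both tables. A general thioredoxin thus stood on the same side as the thioredoxin of the egg in D. pseudoobscura, 6.25 log2 units from dhd and 16.9 log2 units from TrxT. Both distances depend on the low testis level fitted for Trx-2, and that from dhd also on the level fitted for dhd, as given below. In D. ananassae the folds of TrxT and Trx-2 lay 9.15 log2 units apart and were of nearly equal size in opposite directions.

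**Figure D1:**
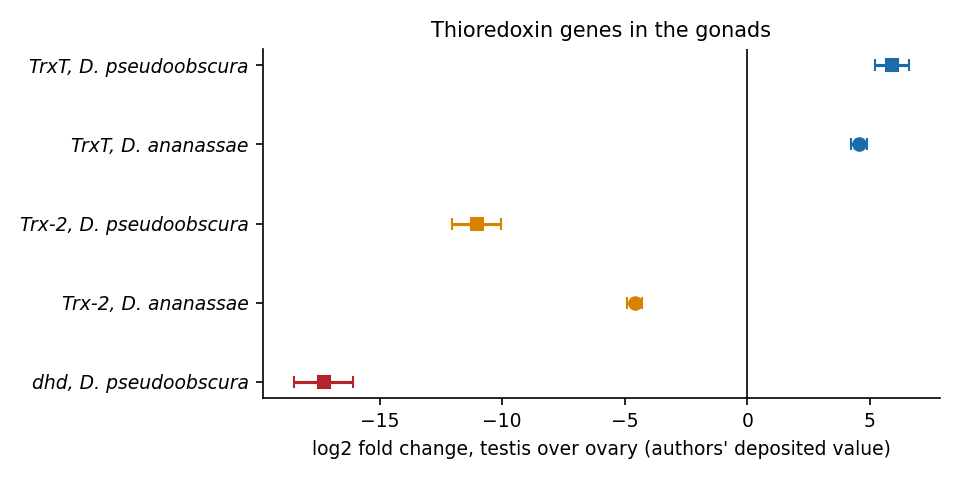
Log2 fold change of testis over ovary for each thioredoxin gene and species, as deposited by the authors, with bars of 1 implied standard error to each side (squares for D. pseudoobscura, circles for D. ananassae). TrxT lies right of 0 at 5.89 and 4.56, Trx-2 left of it at -11.04 and -4.59, and dhd farthest left at -17.28.

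The genes took different places among those of their own direction. More than 0.5 of the testis-biased genes of each species had a larger fold than TrxT. Of the 3540 testis-biased genes of D. pseudoobscura 2272 (64.2%) did, and of the 3664 of D. ananassae 2057 (56.1%), against medians of 8.67 and 5.72 for testis-biased genes in the authors' deposited tables. dhd was at the far end of its direction, ranking 9 among the 5269 ovary-biased genes of D. pseudoobscura. Trx-2 was passed by 300 of those 5269 genes (5.69%) in D. pseudoobscura and by 1177 of 6226 (18.9%) in D. ananassae. The median log2 fold of ovary-biased genes was -4.23 in D. pseudoobscura and -2.69 in D. ananassae in the authors' deposited tables.

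Each gene was also set beside genes within 0.5 log2 units of its average expression. Near dhd there were 172 such genes, of which 3 had a lower log2 fold than dhd, and the median was -2.58. Near Trx-2 in D. pseudoobscura 19 of 1589 genes had a lower fold, and in D. ananassae 107 of 1179. Near TrxT 300 of 1941 genes in D. pseudoobscura and 331 of 1887 in D. ananassae had a higher fold.

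**Figure D2:**
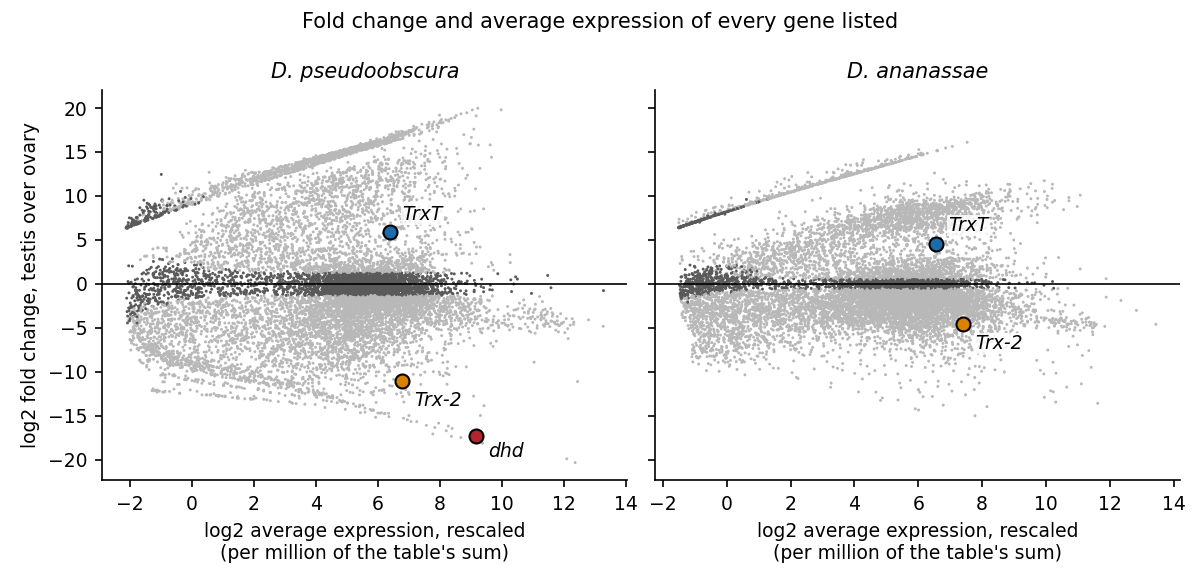
Log2 fold change of testis over ovary against log2 average expression for every gene of each table, D. pseudoobscura left and D. ananassae right, with genes past an adjusted p of 0.05 in light grey and the others in dark grey. dhd lies on the lower edge of the D. pseudoobscura genes, Trx-2 above that edge, and TrxT, in both species, under the upper band of genes with the largest testis folds.

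A fold and an average together imply a level in each tissue. Average expression was first rescaled so that all genes of a table sum to 1000000, which gives levels in parts per 1000000 (ppm), and it is not divided by gene length, so these levels serve to compare tissues within a gene and not abundance between genes. For TrxT the implied level was 205 ppm in testis and 3.46 ppm in ovary in D. pseudoobscura, and 180 ppm in testis and 7.67 ppm in ovary in D. ananassae. Testis thus held 98.3% of the sum of its implied tissue levels in D. pseudoobscura and 95.9% in D. ananassae. The implied ovary levels of testis-biased genes also had a peak at the low end, in D. pseudoobscura with 536 genes between 0.00195 and 0.00276 ppm, and TrxT lay far above it. An implied ovary level under 0.0156 ppm was found for 1262 testis-biased genes (35.6%) of D. pseudoobscura and 520 (14.2%) of D. ananassae. The size of the folds of those genes, against which TrxT was ranked, depends on where the fit put that low end.

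For Trx-2 the implied level was 0.0869 ppm in testis and 183 ppm in ovary in D. pseudoobscura. In D. ananassae it was 13.5 ppm in testis and 325 ppm in ovary. The ovary levels of the 2 species were thus within 2-fold of each other, while the testis levels differed far more, although the tables were normalized separately and levels across them are only side by side. A level of 0.0869 ppm is 1 read in 11500000, and with the depth unknown it cannot be said whether any read of Trx-2 was seen in testis of D. pseudoobscura.

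For dhd the implied ovary level was 949.6 ppm and the implied testis level 0.00596 ppm, or 1 read in 168000000. A level that low is a fitted value and not a count. Among the 5269 ovary-biased genes of D. pseudoobscura the implied testis levels had a separate peak at the low end, with 194 genes between 0.00391 and 0.00552 ppm, and dhd lay on its upper flank with 625 genes lower. In all, 836 ovary-biased genes (15.9%) of D. pseudoobscura had an implied testis level under 0.0156 ppm, a limit set after the levels were seen, and in D. ananassae 136 (2.18%) did. The size of the dhd fold is not a bound on the difference between tissues. It depends on where the fit put that low end, as do the places of dhd by fold given above. The implied standard error of the dhd fold does not measure that dependence. Trx-2 lay above the peak, with 1387 ovary-biased genes lower.

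**Figure D3:**
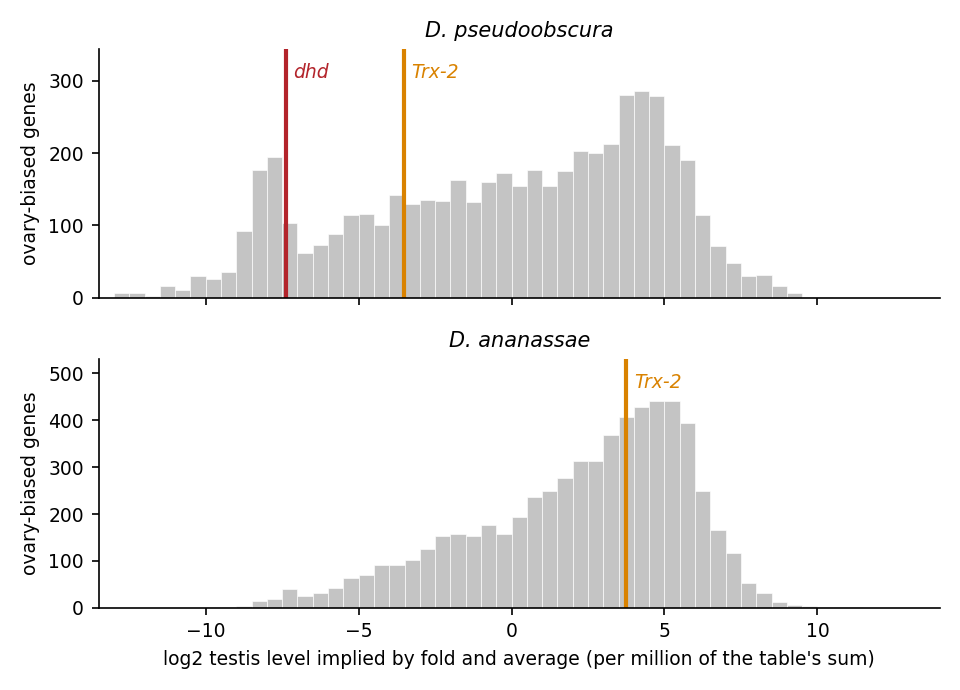
Number of ovary-biased genes by the log2 testis level that fold and average imply, in bins of 0.5, for D. pseudoobscura (top) and D. ananassae (bottom), with vertical lines at dhd and Trx-2. In D. pseudoobscura dhd stands beside the low peak and Trx-2 to its right, and in D. ananassae Trx-2 stands among the bulk of the genes.

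The contrast was then set side by side between species for the members listed in both. The log2 fold of TrxT in D. pseudoobscura minus that in D. ananassae was 1.34 (implied standard error 0.78). The same difference for Trx-2 was -6.44 (implied standard error 1.04). That standard error does not measure how far the Trx-2 fold of D. pseudoobscura depends on the low testis level fitted there. Neither difference was tested, because the tables hold no values per library and the species were fitted separately. Over all called genes the folds of D. pseudoobscura were the larger, as the medians of both directions above show. Those medians are over sets of genes called at unlike folds. A minimum of 2-fold left the 3540 testis-biased and 5269 ovary-biased genes of D. pseudoobscura unchanged. In D. ananassae it cut the testis-biased genes from 3664 to 3352 and the ovary-biased genes from 6226 to 5640. More of the ovary-biased genes of D. pseudoobscura also had an implied testis level at the low end. The part of these whole-table differences in that of Trx-2 was not tested. Over the 24 protein-coding symbols that both tables list, the median absolute log2 fold was 2.81 in D. pseudoobscura and the larger one, 3.99, was in D. ananassae, and of 21 symbols with the same sign in both species 11 had the larger fold in D. pseudoobscura. The median absolute difference between species was 2.47 log2 units over these symbols. In size of difference Trx-2 ranked 3 of 24, and TrxT ranked 18.

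The symbols whose pair of folds lay nearest to that of Trx-2, by Euclidean distance over the 2 species, were Mal-A6, brk and cbt, at distances of 0.59, 0.91 and 1.59 log2 units. Mal-A6, a maltase gene, stood at -11.13 in D. pseudoobscura and -4.01 in D. ananassae in the authors' deposited tables. The repressor gene brk stood at -10.66 in D. pseudoobscura and -5.43 in D. ananassae in the authors' deposited tables. TrxT had no such close neighbour among the 23 other symbols. Its nearest were vnd, MtnA and Mal-B1, at distances of 4.31, 4.37 and 4.69 log2 units. Of these MtnA, a metallothionein gene, was testis-biased in both species, at 2.97 in D. pseudoobscura and 1.30 in D. ananassae in the authors' deposited tables. The distances of vnd and Mal-B1 rest in part on folds that were not called. These were vnd in D. pseudoobscura (adjusted p = 0.292, edgeR) and Mal-B1 in D. ananassae (adjusted p = 0.359, edgeR). For dhd, compared by fold and average expression over 212 other symbols of D. pseudoobscura, the nearest were Mal-A5, HP1Da and Ama at distances of 4.65, 5.10 and 5.83 log2 units, so none lay close to it either.

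**Figure D4:**
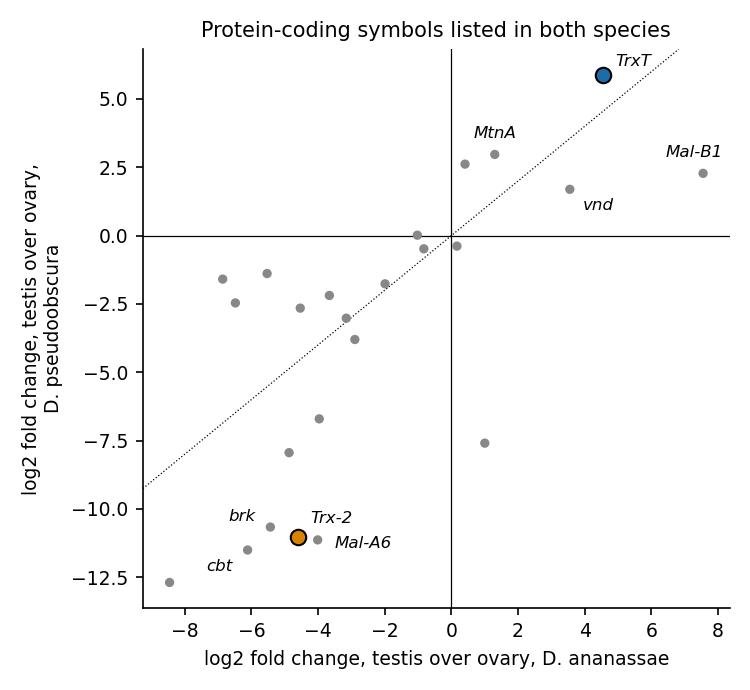
Log2 fold change of testis over ovary in D. pseudoobscura (vertical) against D. ananassae (horizontal) for the 24 protein-coding symbols of both tables, with a dotted line of equal folds. TrxT is at the upper right, apart from the rest, and Trx-2 is well below the dotted line beside Mal-A6.

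TrxT and dhd are also neighbours in the RefSeq annotation of D. pseudoobscura (assembly UCI_Dpse_MV25), with no gene between them, as in D. melanogaster. That assembly was used for gene order alone, since the sources used here do not name the build behind the tables. The log2 folds of TrxT and dhd lay 23.2 units apart (implied standard error 1.40). The size of that distance depends on where the fit put the testis level of dhd, which the implied standard error does not measure. Of the symbols in the table of D. pseudoobscura, 18 pairs are adjacent protein-coding genes in that annotation, a set looked at after the values of TrxT and dhd were known. The other 17 pairs differed by 0.18 to 17.5 log2 units with a median of 2.17, so TrxT and dhd were the pair with the largest difference. The 17.5 units lay between bcd and zen, and zen was not called (adjusted p = 0.696, edgeR). Both genes of a pair were called in the same direction in 12 pairs and in opposite directions in 3, where 29.6% of all genes of the table were testis-biased and 44.1% ovary-biased. The pairs are not independent, since 4 genes (bcd, Gr64a, Gr64e and Gr58c) stand in 2 pairs each. The other opposite pairs were Obp50b with Obp50a, odorant-binding protein genes at 11.03 and -3.16, and Mal-B1 with Mal-B2, maltase genes at 2.28 and -6.71, in the authors' deposited table. Obp50a only just passed the limit for a call (adjusted p = 0.0496, edgeR). The genes on the outer sides of TrxT and dhd, among them snf and Cdk7, are not listed in the table under those symbols. Whether reads of 50 bases were shared between thioredoxin genes by sequence likeness was not tested.

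**Figure D5:**
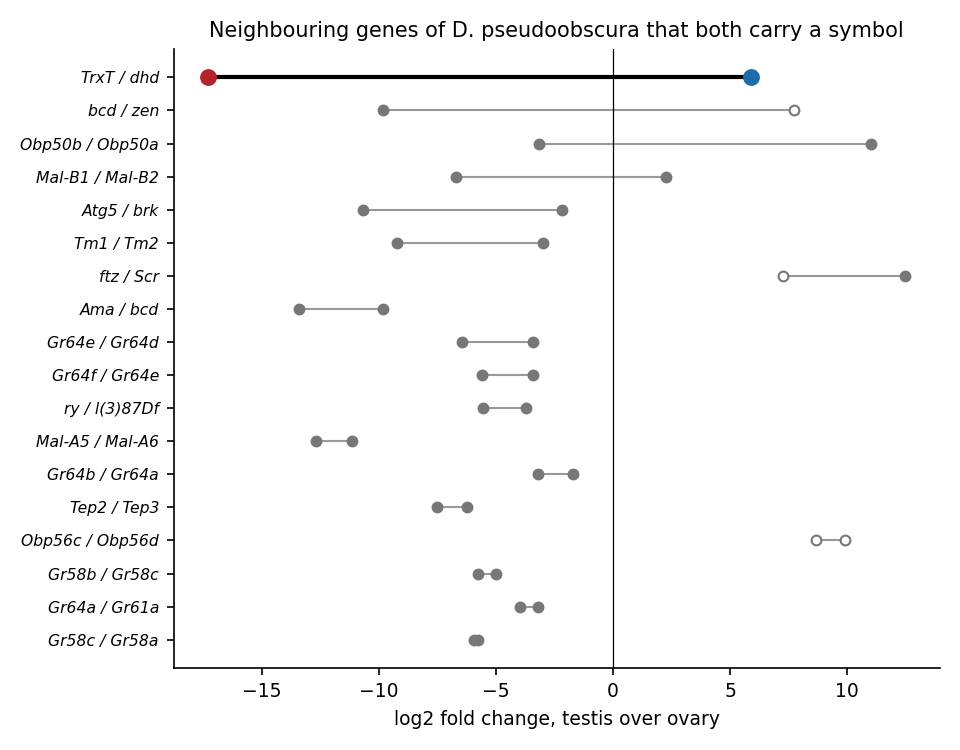
Log2 fold change of testis over ovary for both genes of each of the 18 adjacent pairs of D. pseudoobscura, sorted by the distance between them, with filled points for genes past an adjusted p of 0.05. TrxT at 5.89 and dhd at -17.28 span 0 with both points filled and form the longest line.

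Little of the rest of the thioredoxin system could be followed by name. Of 17 genes listed for thioredoxins, thioredoxin reductases, peroxiredoxins and methionine sulphoxide reductases, 3 were listed in the table of D. pseudoobscura and 2 in that of D. ananassae, and all were the members described above. The lists of protein disulphide isomerases, of ribonucleotide reductase subunits and of sperm chromatin proteins, which include substrates of Dhd in D. melanogaster, had no gene listed by symbol in either species. Of 15 genes of the glutathione and glutaredoxin system and its antioxidant enzymes 1 was listed, in D. pseudoobscura. It was Sod, a cytosolic superoxide dismutase gene, ovary-biased with a log2 fold of -2.26 (implied standard error 0.66; adjusted p = 0.00094, edgeR) in the authors' deposited table. Sod thus shared its direction with Trx-2 and dhd, with a fold smaller than the median of ovary-biased genes.

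Markers of other tissues also moved between the gonads of D. pseudoobscura. Of 7 muscle markers 3 were listed, and all were ovary-biased, with Tm2 at -9.21, Mlc1 at -7.35 and Tm1 closer to 0 in the authors' deposited table, the same direction as Trx-2, dhd and 44.1% of all genes. Of 4 accessory gland markers 2 were listed, and both were testis-biased, Acp53Ea at 9.05 (implied standard error 2.56) and Acp26Aa at 5.56 (implied standard error 1.05) in the authors' deposited table, the direction of TrxT and of 29.6% of all genes. Their rescaled log2 averages were low, -0.35 for Acp53Ea and -0.32 for Acp26Aa. Neither list had a gene in the table of D. ananassae, and of the 3 fat body markers none was listed in either. The part of these marker genes in the folds of the thioredoxin genes was not tested.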

How the data were processed

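The submitters' processing notes name edgeR, HTSeq 0.5.4p3, Bowtie2 2.1.0, Cuffdiff 2.1.0 and Cufflinks 2.1.0. The sources used here do not state builds, annotation, count filter or normalization. Each deposited table holds, per the file headers, log2 values for the fold and the average expression of a gene, a likelihood-ratio score and a p-value with its false discovery rate. The deposited p-value equalled the chi-square tail of that score (1 degree of freedom) within 0.495%, and the false discovery rate the Benjamini-Hochberg value within 0.821%. The deposited log2 averages summed to 8.09e+06 and 6.69e+06 times 1000000 on the linear scale in D. pseudoobscura and D. ananassae, and were rescaled to sum to 1000000. Tissue levels were solved from fold and average, the average being taken as the mean over libraries. No test was run here, since no value per library is used.

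The members and lists were chosen with earlier results of these data known. The text names the members, up to 4 genes per list by smallest adjusted p, neighbours, and the 3 symbols of nearest pattern. Other genes, and the set of adjacent pairs, were chosen after their values were seen. Lists were matched by symbol, since 0 of the 11686 identifiers of D. pseudoobscura could be paired with a reference entry. The reference annotation was that of D. pseudoobscura, so the 11366 identifiers of D. ananassae could not have been paired with it. Formulas were tested on simulated data. The simulated folds were smaller than those of every thioredoxin gene. Genes unseen in a tissue were left out of the checks of tissue levels and implied standard errors, so the low end was not covered. Alternatives were centring on the median gene, Bonferroni, Benjamini-Yekutieli, a minimum of 2-fold, a filter on low averages and equal tissue weights. Python 3.11.15, numpy 2.4.6, pandas 2.3.3, scipy 1.17.1 and matplotlib 3.10.9 were used.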

Additional observations from a re-analysis of the deposited data

How the results depend on the processing

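The 5 member folds kept their direction and call under all 25 alternatives, the largest Bonferroni-adjusted p being 5.9e-13. Of these alternatives only centring changes a fold, so the others could not change a direction. Centring in turn left every adjusted p as it was. Centring on the median gene, which stood at -0.85 in D. pseudoobscura and -0.93 in D. ananassae, gave TrxT 6.74 and 5.48, Trx-2 -10.19 and -3.67 in those species, and dhd -16.44. Of the counts of genes called, the ovary-biased genes of D. pseudoobscura numbered 3279 under Bonferroni adjustment, against 5269. Leaving out a replicate could not be run without values per library. No paired analysis was possible because the tables hold no values per library. With the depth unknown, how many reads lay behind the testis levels of dhd, at the low end of the fit, and of Trx-2 in D. pseudoobscura, above that low end, is not known.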
